A study of Mus musculus with 3 samples.

Results

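Receptor tyrosine kinases for growth factors and related ligands were examined in RNA sequencing libraries of glomerular cells, the cells of the kidney's filtering units. The 39 members were named by gene symbol and sorted into 17 subfamilies. The list leaves out the Eph receptors and Csf1r, and each member matched 1 of the 39304 rows of the deposited table. The cells came from 1 wild type C57BL/6 male mouse aged 8 weeks. The cDNA of 15 mesangial cells (contractile supporting cells between the capillaries) and 15 endothelial cells (which line the capillaries), each assigned its type by qPCR of marker genes, was mixed and split into 3 aliquots that were sequenced. All aliquots form 1 group, so no comparison between conditions exists and every SD (n = 3 aliquots) measures library making and sequencing, not mice. The mixture does not tell which cell type made a transcript, and fewer expressing cells cannot be told apart from less RNA per cell.

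Receptor tyrosine kinases are membrane proteins with a ligand-binding part outside the cell and, in most, a kinase inside. Ligand binding brings receptor chains together, the kinases phosphorylate each other's tyrosines, and adaptor proteins dock there and start the RAS-ERK and PI3K-AKT pathways. In the glomerulus, PDGF-B from endothelial cells recruits and maintains mesangial cells through PDGFRβ, while VEGF-A from podocytes maintains the endothelium through VEGFR2, and angiopoietins act on the endothelium through Tie2. Not every member fits the label strictly. Ddr1 and Ddr2 bind collagen, the Ror receptors, Ptk7 and Ryk are tied to Wnt signalling, and Fgfrl1 lacks a tyrosine kinase domain.

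Levels are FPKM, that is, sequenced fragments scaled to gene length in kilobases and to a library of 1000000 reads. Aliquots 1, 2 and 3 had totals of 9141422, 10427635 and 10976563 reads. A gene was called detected when none of the aliquots lay below 1 FPKM, which held for all 8 mesangial markers and 9 of 11 endothelial markers. Of the endothelial list Cldn5 was listed at 0 and Nos3 had 0.0279, 0 and 0 FPKM. Podocyte markers were also present, 6 of 7 detected, with a summed level of 275 to 292 FPKM per aliquot against 8650 to 9091 FPKM for the mesangial and 2313 to 2382 FPKM for the endothelial list. Of 5 fibroblast markers 1 was detected (Pi16), with a summed level of 3.72 to 4.89 FPKM, and all 3 macrophage and 6 nephron epithelium markers were listed at 0. The qPCR that assigned cell types included Gata3, Igfbp5, Pecam1, Synpo and Wt1 of these lists, and the member Tek. The part of podocyte RNA in the receptor levels was not tested.

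The receptors fell into a small group with high levels and a larger group near or at 0. In all, 15 of the 39 members were detected, 7 had reads but stayed under the limit in at least 1 aliquot, and 17 were listed at 0 in all aliquots. The share listed at 0 was 43.6% of members, against 71.7% of all rows and 54.6% of protein-coding rows. The share detected was 38.5% of members, against 21.7% of all rows and 36.4% of protein-coding rows. This share is near that of protein-coding rows, so being detected is nothing particular to these receptors. The median over members was 0.114 FPKM, against 0 FPKM over all rows and over protein-coding rows. The members together had 803 ± 6.80 FPKM and took 0.238% ± 0.00261 of all reads. Axl, Kdr and Pdgfrb alone made up 66.4% ± 0.135 of the summed FPKM. Tie1, the tenth member, had 14.4 FPKM and the next, Igf1r, 4.97 FPKM, and at a limit of 5 FPKM those first 10 members were the ones detected.

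**Figure D1:**
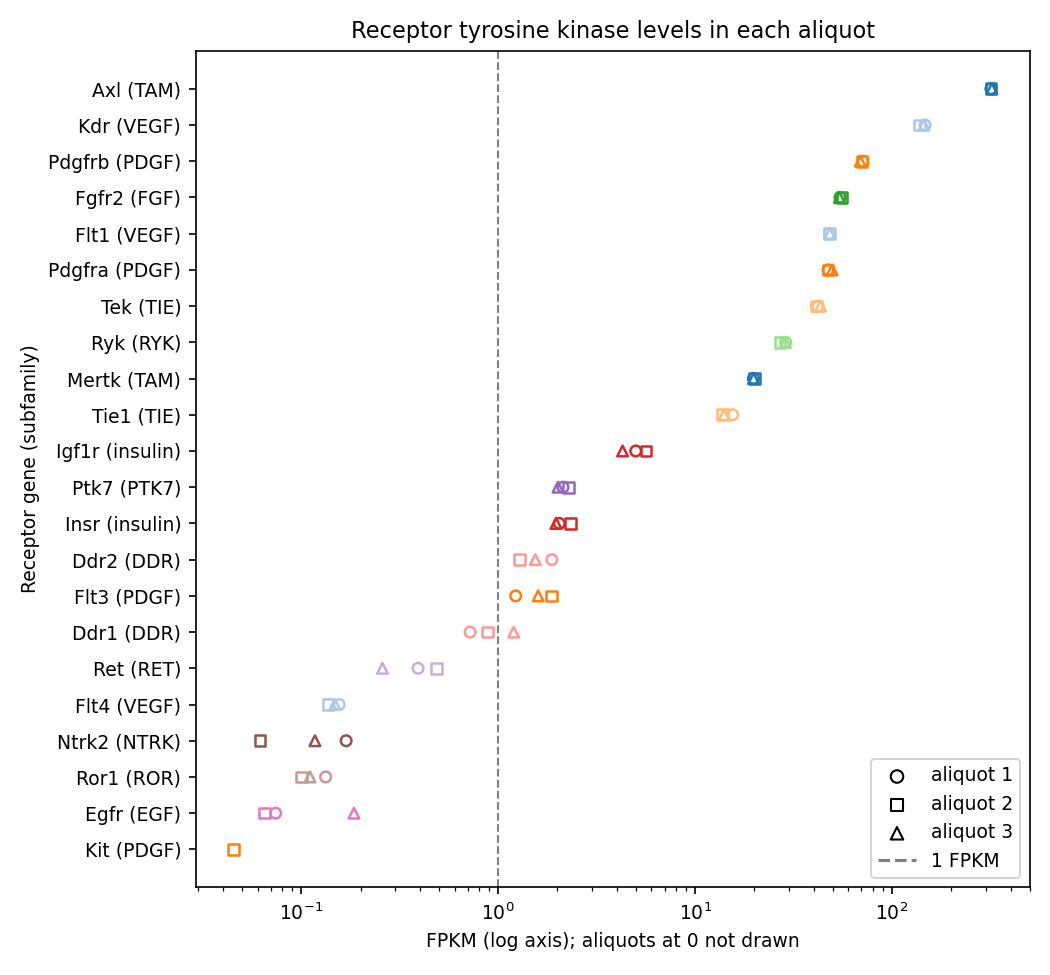
FPKM on a log axis in each of the 3 aliquots (circle, square and triangle) for the 22 receptor genes with any reads, ordered by mean and coloured by subfamily, with a dashed line at 1 FPKM. The aliquots lie nearly on top of each other for the first 10 genes, from Axl at 319 FPKM to Tie1 at 14.4 FPKM. They spread visibly for Ddr1, on both sides of the line, and for Ntrk2 and Egfr below it.

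A zero is reported only as listed. The table does hold very low values, since 355 protein-coding rows had 1 recovered read over all aliquots and 538 had 2 to 10. Yet Pik3cb, a PI3K catalytic subunit used by many cell types, was also listed at 0. Among the 17 members at 0, exons of 2 overlapped exons of another gene, by at most 1.66% of their bases. For the 15 detected members the count was 3, with at most 3.04%. For the 7 members below the limit it was 1, with 4.52%. The share over all genes was not computed, and whether overlap lowered any level was not tested.

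Ranked by summed FPKM, the TAM subfamily (Axl, Mertk, Tyro3) came first with 339 ± 1.84 FPKM, or 42.2% ± 0.321 of the summed receptor level. The VEGF receptors followed with 192 ± 4.88 FPKM (23.9%), then the PDGF subfamily, which includes Kit and Flt3, with 120 ± 0.331 FPKM (14.9%). The TIE pair had 56.7 ± 1.42 FPKM and the FGF receptors 54.8 ± 0.905 FPKM, ranges that overlapped between the aliquots. Ryk stood at 28.2 ± 1.02 FPKM and the insulin subfamily at 7.09 ± 0.862 FPKM, and no other subfamily reached 3 FPKM. The ALK, MET, MUSK and ROS subfamilies were listed at 0 throughout.

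This ranking rests on gene length. For Axl the length taken was 1694 bases, the mean of its annotated transcripts, whose longest has 4265 bases. It is a whole multiple of the shortest length giving whole reads, so the deposited values alone do not fix it. For Kdr the shortest such length was taken, 4549 bases, and its longest transcript has 5924. The recovered reads of both genes rest on these lengths. Per longest transcript the TAM share was 30.9% and the VEGF share 28.6%. In reads per 1000000, which are not divided by length, VEGF led with 33.9% against 25.7% for TAM. The third to seventh places (PDGF, TIE, FGF, RYK, insulin) were the same on all 3 scales.

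**Figure D2:**
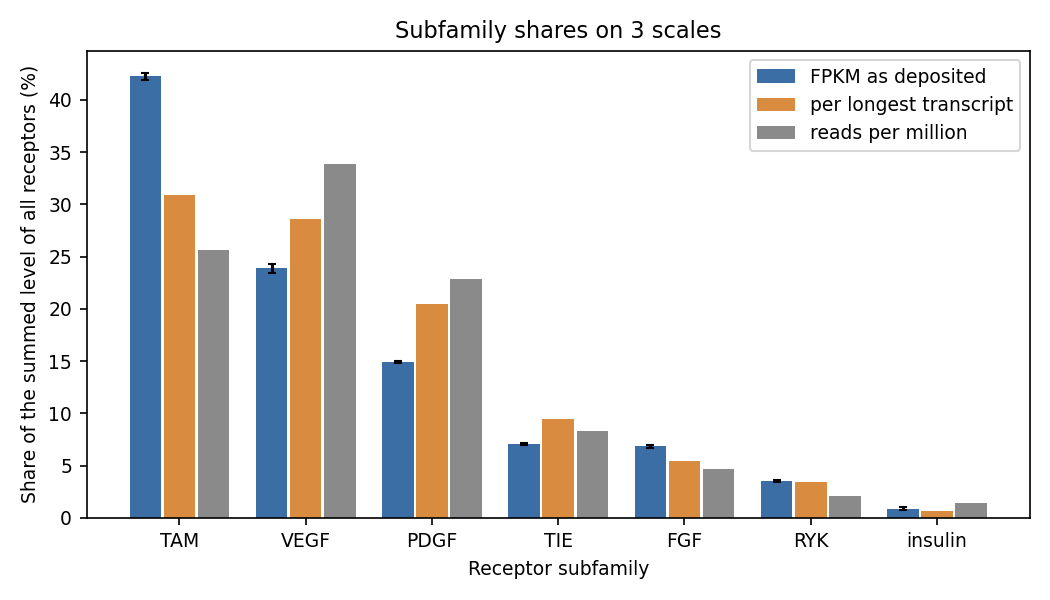
Share of the summed receptor level (%, linear axis from 0) for the 7 highest subfamilies, as bars for deposited FPKM (error bars, SD over 3 aliquots), FPKM per longest transcript and reads per 1000000. TAM leads on both length-scaled measures, with 42.2% and 30.9%, and VEGF leads in reads per 1000000 with 33.9%.

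Promoters of the members differed widely in CpG dinucleotides, the sites of DNA methylation in mammals, a feature the choice of members did not use. RefSeq promoter windows on GRCm38.p6, from 250 bases before to 50 bases after a start, were at hand for 32 of the 39 members. For any gene with several starts, the window with the highest ratio of observed to expected CpG was kept. Among members these were Ddr1 (4 starts) and Kit, Fgfr3 and Mst1r (2 each), none of them detected. Among detected members the median was 14 CpG (13 genes, range 2 to 48), against 22 among the 6 with low values and 21 among the 13 listed at 0 (range 4 to 37). The ranges overlap almost wholly. A ratio of observed to expected CpG of at least 0.6 was found in 6 of 13 detected members (46.2%) and 9 of 13 members at 0 (69.2%). The share was 52.5% of 16522 protein-coding genes and 80.4% of the 6217 of them that were detected. Among detected members, Axl (6 CpG), Fgfr2 (4), Pdgfra (5), Tek (3) and Tie1 (7) had few, and Kdr (19), Flt1 (29), Ryk (42) and Igf1r (48) had more. Members listed at 0 spanned a like range, with few in Ros1 (4), Musk (8) and Mst1r (9) and many in Met (34) and Fgfrl1 (37). Methylation was not measured, and the counts describe the sequence alone. The windows below contrast 2 detected CpG-poor genes, 1 detected CpG-rich gene and 1 CpG-rich gene listed at 0, each 5′ to 3′ on the gene's strand with CpG in capitals. They lie at chr7:25788684-25788983 (Axl, minus strand), chr4:94739039-94739338 (Tek, plus), chr5:147725962-147726261 (Flt1, minus) and chr6:17463707-17464006 (Met, plus).
Axl: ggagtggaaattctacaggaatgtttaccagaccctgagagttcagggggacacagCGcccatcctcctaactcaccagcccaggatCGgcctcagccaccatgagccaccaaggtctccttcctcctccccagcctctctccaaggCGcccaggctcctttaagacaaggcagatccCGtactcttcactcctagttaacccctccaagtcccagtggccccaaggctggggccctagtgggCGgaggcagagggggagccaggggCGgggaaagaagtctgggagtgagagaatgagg
Tek: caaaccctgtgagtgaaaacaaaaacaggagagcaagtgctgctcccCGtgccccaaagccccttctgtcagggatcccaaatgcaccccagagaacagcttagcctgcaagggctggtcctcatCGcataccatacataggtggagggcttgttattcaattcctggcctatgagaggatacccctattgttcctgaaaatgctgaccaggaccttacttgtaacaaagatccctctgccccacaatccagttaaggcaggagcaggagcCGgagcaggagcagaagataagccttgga
Flt1: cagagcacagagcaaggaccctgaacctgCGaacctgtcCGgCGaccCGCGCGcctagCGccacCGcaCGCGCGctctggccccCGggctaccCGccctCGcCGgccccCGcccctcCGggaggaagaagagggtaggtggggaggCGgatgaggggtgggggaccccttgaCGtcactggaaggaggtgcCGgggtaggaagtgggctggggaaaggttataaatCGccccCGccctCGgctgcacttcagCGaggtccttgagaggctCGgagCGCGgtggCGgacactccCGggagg
Met: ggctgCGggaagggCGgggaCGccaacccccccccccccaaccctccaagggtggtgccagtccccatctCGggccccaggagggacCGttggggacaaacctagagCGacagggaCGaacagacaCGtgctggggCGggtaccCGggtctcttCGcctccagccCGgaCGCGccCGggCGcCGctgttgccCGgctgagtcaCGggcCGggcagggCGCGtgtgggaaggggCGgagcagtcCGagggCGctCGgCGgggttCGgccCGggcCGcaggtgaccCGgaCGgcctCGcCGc

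**Figure D3:**
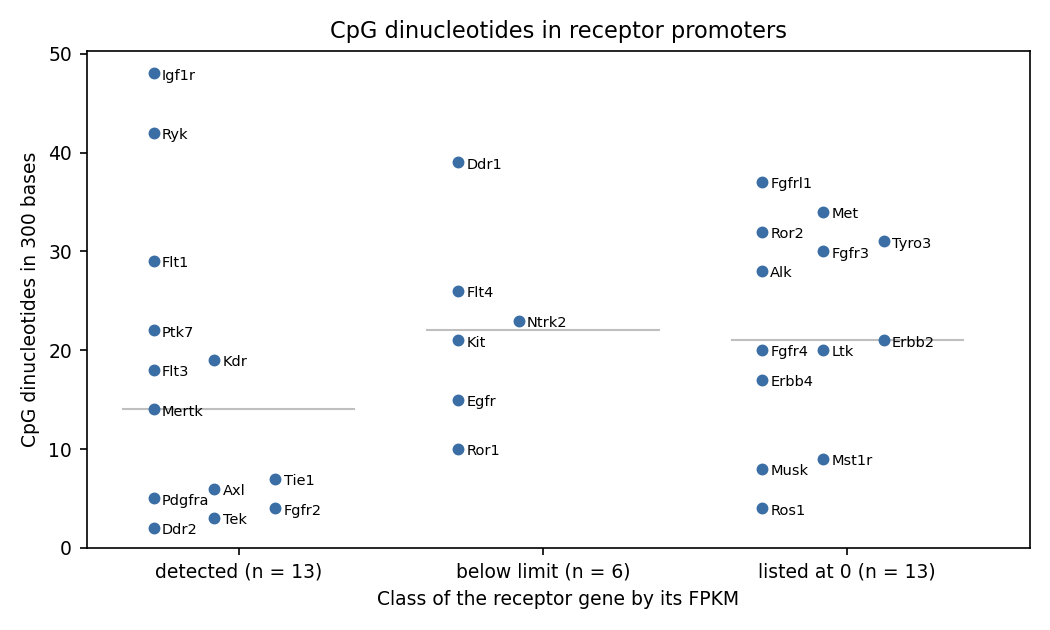
Number of CpG dinucleotides in the promoter window of 300 bases for the 32 receptor genes with a RefSeq window, by class (detected, below the limit, listed at 0), with a grey line at each class median. The medians are 14, 22 and 21, and the classes overlap over most of their range.

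TAM receptors recognise Gas6 and protein S, vitamin K-dependent proteins that bridge them to phosphatidylserine on dying cells, and of the pair Axl binds Gas6 alone. Axl (ENSMUSG00000002602, chromosome 7, 25757273 to 25788705, minus strand, GRCm38) had 318, 318 and 321 FPKM in aliquots 1, 2 and 3, higher than 97.4% of the 11142 rows above 0. Mertk, which macrophages and other phagocytes use to clear dying cells, had 19.8, 19.98 and 19.8 FPKM. Tyro3 was listed at 0. Axl was therefore 16.1 ± 0.151 times as high as Mertk in FPKM, and 7.80 times per longest transcript. The aliquots were nearly identical for both genes, with coefficients of variation of 0.587% and 0.546%. Of the TAM ligands, protein S (Pros1) had 161 ± 4.78 FPKM and Gas6 57.7 ± 3.77 FPKM.

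VEGF receptors direct the growth and survival of endothelial cells. Kdr, which encodes VEGFR2, the main signalling receptor for VEGF-A (ENSMUSG00000062960, chromosome 5, 75932827 to 75978458, minus strand), had 147, 138 and 145 FPKM. Flt1, or VEGFR1, which binds VEGF-A tightly and signals weakly (ENSMUSG00000029648, chromosome 5, 147561604 to 147726011, minus strand), had 48.1, 48.0 and 48.3 FPKM. Kdr lay above Flt1 in every aliquot, 2.98 ± 0.0935 times in FPKM and 4.96 times per longest transcript. Flt4, the lymphatic receptor VEGFR3, was near 0 with 0.156, 0.136 and 0.148 FPKM from 22 reads in all. The co-receptor neuropilin 1 (Nrp1) was higher than any of them at 746 ± 3.63 FPKM, whereas Nrp2 had 1.96 ± 0.239 FPKM. Among ligands, Vegfd led with 90.7 ± 2.47 FPKM. Vegfa (16.3 ± 1.73 FPKM), Vegfc (9.68 ± 0.397 FPKM) and Pgf (8.999 ± 1.34 FPKM) were lower, and Vegfb was listed at 0.

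Axl and Kdr changed places with the scale. Axl was 2.23 ± 0.0721 times Kdr in FPKM and 1.15 times per longest transcript, and 0.829 times Kdr in reads per 1000000. Both stayed above Pdgfrb on each scale.

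TIE receptors regulate vessel stability. Tek, which encodes the angiopoietin receptor Tie2 (ENSMUSG00000006386, chromosome 4, 94739289 to 94874976, plus strand), had 42.1, 41.2 and 43.4 FPKM. Its level is a description, since the cells were chosen by it. Tie1, a partner of Tie2 that does not itself bind angiopoietins strongly, had 15.5, 13.8 and 14.0 FPKM. The Tek level was 2.93 ± 0.195 times that of Tie1 and above it in every aliquot. Among the ligands, Angpt2, which acts on Tie2 as a context-dependent antagonist, had 107 ± 0.397 FPKM, while the agonist Angpt1 and Angpt4 were listed at 0. Ptprb, the endothelial phosphatase VE-PTP that dephosphorylates Tie2, had 68.3 ± 0.429 FPKM.

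In the PDGF subfamily both PDGF receptors were high and the 2 stem cell factor and FLT3 ligand receptors were not. Pdgfrb, the receptor by which mesangial cells answer PDGF-B (ENSMUSG00000024620, chromosome 18, 61045150 to 61085061, plus strand), had 71.2, 70.5 and 69.0 FPKM. Pdgfra, which also binds PDGF-A and PDGF-C (ENSMUSG00000029231, chromosome 5, 75152292 to 75198215, plus strand), had 47.3, 47.3 and 49.6 FPKM. The ranges of these receptors did not overlap. Pdgfrb was 1.46 ± 0.0623 times Pdgfra in FPKM and 3.04 times per longest transcript. Pdgfra is also known from fibroblasts. Of the 5 fibroblast markers Pi16 had 4.89, 3.72 and 4.57 FPKM and the other 4 (Lum, Dcn, Col1a1, Col3a1) had 0, and the part of fibroblast RNA in the Pdgfra level was not tested. Flt3, a receptor of early blood cells, had 1.23, 1.86 and 1.60 FPKM from 206 reads. Kit, the receptor of stem cell factor, had 1 recovered read over all aliquots, the fewest its values allow (exact Poisson 95% interval 0.0253 to 5.57). The interval covers counting error only and takes that read number as given. All 5 ligands with a row were detected. Pdgfa had 161 ± 8.28 FPKM, Kitl 45.4 ± 1.78 FPKM, Pdgfd 40.8 ± 0.863 FPKM, Pdgfb 36.5 ± 1.07 FPKM and Pdgfc 24.6 ± 0.726 FPKM.

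FGF signalling was represented by 1 receptor and 1 ligand. Fgfr2 (ENSMUSG00000030849, chromosome 7, 130162451 to 133123350, minus strand), a receptor whose splice forms differ in ligand choice, had 54.5, 55.8 and 54.1 FPKM. Fgfr1, Fgfr3, Fgfr4 and the decoy-like Fgfrl1 were listed at 0. The table gives genes, so the splice form of Fgfr2 is not known. Of 18 FGF ligands only Fgf1, the ligand that binds all FGF receptors, was detected, with 161 ± 5.12 FPKM, and the other 17 were listed at 0. The heparan sulfate proteoglycan Sdc4, which can present FGFs, had 440 ± 4.09 FPKM, Sdc3 had 15.6 ± 0.930 FPKM, Gpc1 5.79 ± 0.526 FPKM and Sdc2 1.91 ± 0.346 FPKM. Sdc1 had 0.112 FPKM, and the klotho co-receptors Kl and Klb for hormone-like FGFs were listed at 0.

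Receptors of the insulin subfamily were low. Igf1r, the IGF-1 receptor, had 4.996, 5.64 and 4.28 FPKM, and the insulin receptor Insr 2.04, 2.33 and 1.97 FPKM. Igf1r was above Insr in every aliquot, by 2.35 ± 0.147 times in FPKM and 1.57 times per longest transcript. Insrr was listed at 0, as were Igf1, Igf2, Ins1 and Ins2. IGF-binding proteins stood far above the receptors: Igfbp5, used to choose mesangial cells, had 950 ± 11.8 FPKM, Igfbp7 572 ± 4.70 FPKM and Igfbp4 214 ± 0.367 FPKM, and the other 4 were listed at 0.

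EGF receptors were at or near 0. Egfr had 0.0740, 0.0649 and 0.185 FPKM from 10 reads (exact Poisson 95% interval 4.80 to 18.4), and Erbb2, Erbb3 and Erbb4 were listed at 0. The EGFR ligand Tgfa was detected with 8.87 ± 0.502 FPKM. Hbegf had 0.651 ± 0.144 FPKM, and the remaining 9 EGF family ligands were listed at 0.

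Of the receptors tied to Wnt signalling, Ryk, which binds Wnt proteins through a WIF domain and whose kinase is inactive, had 28.8, 27.03 and 28.8 FPKM. Ptk7, a planar cell polarity pseudokinase, had 2.13, 2.28 and 2.01 FPKM. Ror1 had 0.133, 0.0999 and 0.111 FPKM, Ror2 was listed at 0, and Wnt5a, a ligand of the Ror receptors, had 0, 0.0836 and 0.119 FPKM. Ryk was thus the only one of these 4 receptors above 3 FPKM. The collagen receptor Ddr2 had 1.87, 1.28 and 1.54 FPKM and Ddr1 0.720, 0.883 and 1.199 FPKM, so that Ddr1 passed the limit in aliquot 3 alone.

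The remaining receptors had few or no reads. Ret, the receptor of GDNF family ligands, had 0.392, 0.486 and 0.258 FPKM from 77 reads, and its 5 GFRα-type co-receptors and 5 ligands were listed at 0. Ntrk2, the BDNF receptor, had 0.169, 0.0617 and 0.117 FPKM from 27 reads. Met and Mst1r, receptors for HGF and macrophage-stimulating protein, were at 0 with both ligands, as were Alk and Ltk with theirs, and Ros1. Ntrk3 and Musk were at 0 while their ligands Ntf3 (3.84 ± 0.120 FPKM) and agrin (Agrn, 7.07 ± 0.764 FPKM) were detected. Lrp4, the agrin-binding partner of Musk, had 8.35 ± 0.239 FPKM.

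The order of the 22 members with reads was then checked against the spread between aliquots. Of its 21 neighbouring pairs, 15 did not overlap in FPKM and 6 did. The overlapping neighbours were Flt1 with Pdgfra (48.2 and 48.1 FPKM), Ptk7 with Insr (2.14 and 2.11 FPKM), Ddr2 with Flt3 (1.57 and 1.56 FPKM), and Flt4, Ntrk2, Ror1 and Egfr in a row (0.147 to 0.108 FPKM). No test was made, because 3 values against 3 cannot go below p = 0.1 in a two-sided exact permutation test and because gene lengths enter the order. Per longest transcript Tek moved from the seventh place to the fourth and Flt1 from the fifth to the seventh, while Axl, Kdr and Pdgfrb kept the first 3 places.

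Receptors were set beside their textbook ligands in 60 pairs. For 1 of them (Flt3 with its ligand) no row was found under the ligand's symbol, and whether another row holds it was not settled. In 14 pairs both genes were detected, in 9 the ligand only, in 10 the receptor only and in 26 neither. Counted by receptor, 8 of 10 detected receptors had at least 1 ligand detected, and the 2 without were Igf1r and Insr. Among 16 receptors that were not detected, 7 had a detected ligand: Kit, Flt4, Egfr, Fgfr1, Tyro3, Ntrk3 and Musk. These pairs were chosen with the values known and describe this pool alone. Of 62 ligands with a row 16 were detected, where 36.4% of protein-coding rows and 21.7% of all rows were. No background share was computed for the counts of pairs and receptors.

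**Figure D4:**
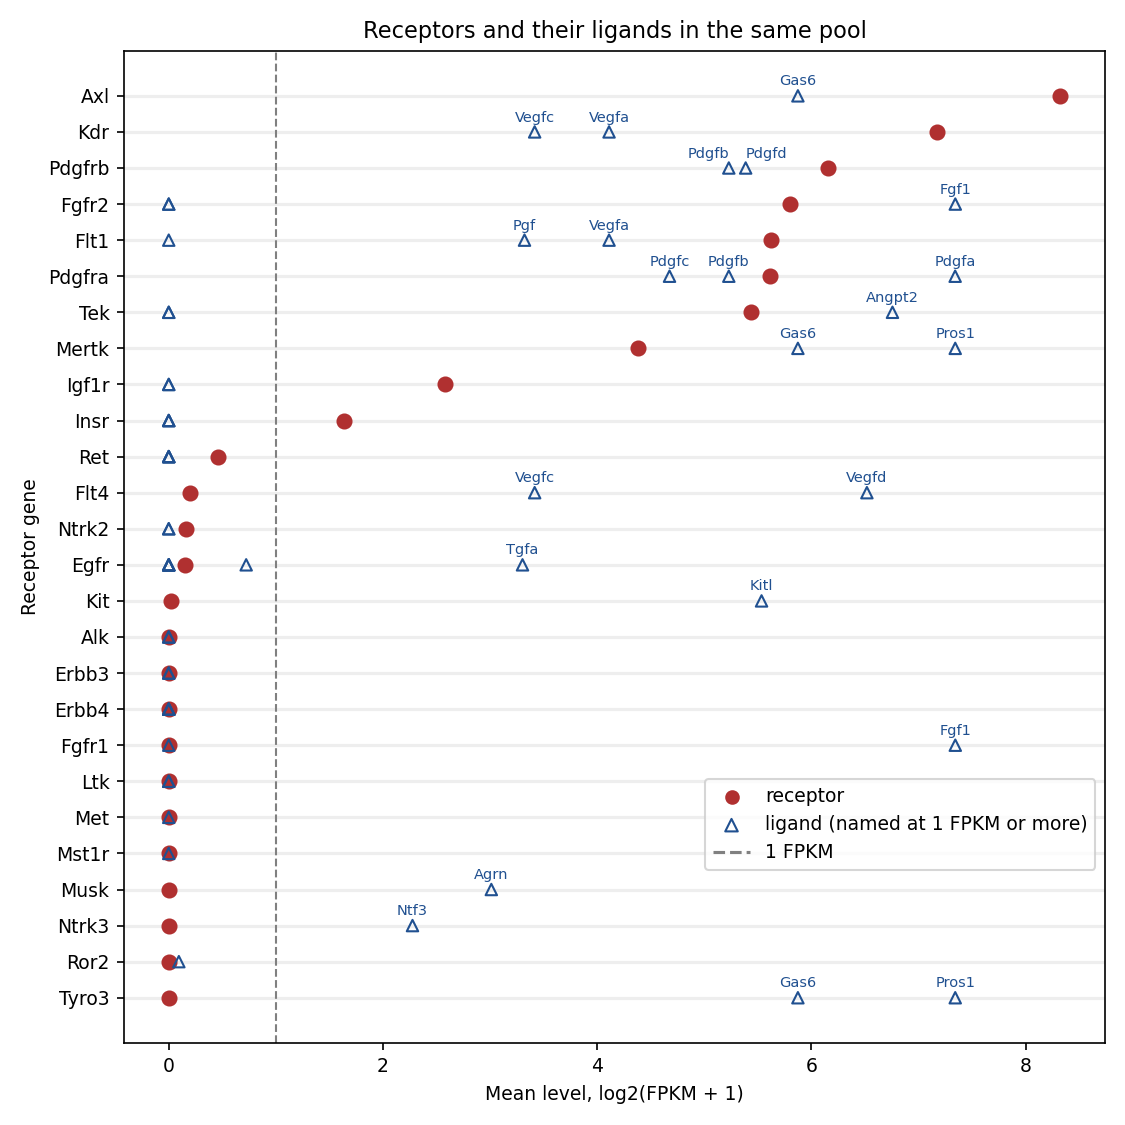
Mean level on the log2(FPKM + 1) scale of 26 receptors (filled circles) and their ligands (open triangles, named from 1 FPKM on), with a dashed line at 1 FPKM. Kit, Flt4, Egfr, Fgfr1, Tyro3, Ntrk3 and Musk lie left of the line with a ligand right of it, and Igf1r and Insr show the opposite.

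Genes whose products carry receptor signals onward were then counted at the RNA level, where 36.4% of protein-coding rows were detected. Of 17 RAS-ERK and PI3K-AKT effectors 15 were detected, with a median of 36.7 FPKM, led by Nras (275 ± 4.59 FPKM), Araf (136 ± 2.54 FPKM), Mapk3, the kinase ERK1 (128 ± 2.30 FPKM), and Braf (119 ± 2.05 FPKM). Map2k2 passed in 2 aliquots (0.641, 1.28 and 1.45 FPKM). Of 28 adaptors 18 were detected, with a median of 7.07 FPKM. Crk (156 ± 0.282 FPKM), Nck2 (153 ± 8.37 FPKM), the RAS GTPase-activating protein Rasa1 (103 ± 6.30 FPKM) and the PI3K regulatory subunit Pik3r1 (72.7 ± 0.642 FPKM) stood highest. The insulin receptor substrates Irs2 (1.59 ± 0.403 FPKM) and Irs1 (0.175 ± 0.0556 FPKM), chosen after their values were seen, were low, like Insr itself.

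Negative regulators included some of the highest genes of the pathway. Of 20 with a row 13 were detected, with a median of 9.10 FPKM. The ERK pathway inhibitors Spry2 (286 ± 15.4 FPKM) and Spry4 (167 ± 4.88 FPKM) and the ERK phosphatase Dusp6 (111 ± 1.84 FPKM) were among the highest, and Lrig1, Lrig3 and Dusp4 were listed at 0. Over all 149 partner genes with a row 72 were detected, with a median of 1.01 FPKM. This total pools unlike lists, such as ligands (16 of 62 detected) and effectors (15 of 17). Beside these counts, 36.4% of protein-coding rows and 21.7% of all rows were detected.

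Coefficients of variation between the aliquots ran from 0.303% (Flt1) to 20.4% (Flt3) among detected members. Reads recovered from the FPKM steps were compared between aliquots by a chi-square test that takes library size into account. Adjusted over all genes with at least 30 reads, it called 1.09% of 9115 genes and 0 of the 17 members tested. In simulated data it called 41% of genes changed 1.2-fold in 1 aliquot and 69% of those changed 1.5-fold. A member without a call may therefore still differ. Of the 17 members tested, 3 had an unadjusted chi-square p under 0.05 (Kdr, Igf1r and Ddr2), against 1041 of the 9115 genes tested. Kdr came closest (chi-square test, Benjamini-Hochberg adjusted p = 0.0595). By the same chi-square test Kdr was called when the third aliquot was left out (adjusted p = 0.046). The chi-square test also called it with mitochondrial genes left out of the totals (adjusted p = 0.0485). The chi-square test takes the recovered reads as given, and for a gene whose reads were a whole multiple of these its statistic would be higher. The aliquots share 1 cDNA pool and amplified cDNA reads are not independent molecules, so the test speaks of counting error alone.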

How the data were processed

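RNA sequencing libraries of 3 aliquots of 1 cDNA pool were analysed from 1 table of 39304 rows. The authors deposited FPKM, 1 column per aliquot. GRCm38, TopHat2 2.0.12 and HTSeq 0.6.1 are named in the submitters' processing notes; the annotation release, the settings and how gene length was defined were not stated there. Symbols matched 37607 identifiers. GENCODE M21 on GRCm38 supplied coordinates and transcript lengths. Strand use in counting is not known.

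Low FPKM values step in whole reads, so library totals and reads were recovered (all 3 values whole within 0.001 reads, 11142 of 11142 rows above 0, summing to 96.7% of each total). The shortest length giving whole reads was taken, or the mean transcript length where that is a multiple of it. For other genes a whole multiple of the reads and length is also possible. Such a multiple would move reads per 1000000 and longest-transcript values but not FPKM. It would also raise the chi-square statistic and the reads that the read minimum and the counting intervals rest on. In simulated data with every gene at its mean transcript length, reads were recovered exactly for 99.7% of genes. In the deposited data the length lay within 1 base of that mean for 45.9% of genes. The simulation does not cover the others. No count model was run, since the unit is FPKM and there is 1 group. Recovered reads served for the chi-square test of spread (threshold 0.05), for reads per 1000000 and for lengths scaled to the longest transcript. A member was called detected at 1 FPKM or more in every aliquot. Ratios are means of per-aliquot ratios. Python 3.11.15, scipy 1.17.1 and pandas 2.3.3 were used.

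Members and lists were chosen with earlier results of these data known. All members, ligands and co-receptors may be named, and of other lists the highest and lowest. Some genes of these lists are not reported here by name. Alternatives were other detection limits, lengths, pseudocounts, read minimums and leaving out aliquots. Protein sequences were not used here, and the 7 members without a promoter entry are Erbb3, Fgfr1, Insr, Insrr, Ntrk3, Pdgfrb and Ret.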

Additional observations from a re-analysis of the deposited data

How the results depend on the processing

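The number of members detected was 10 of 39 at 5 FPKM, where 29.1% of protein-coding rows were detected, and 17 at 1 read per 1000000, where 38.4% were. It was 15 without each aliquot. The number of partner genes detected stayed between 66 of 149 (at 5 FPKM) and 76 (at 0.5 FPKM and at 1 read per 1000000). Protein-coding rows detected were 29.1% at 5 FPKM, 38.3% at 0.5 FPKM and 38.4% at 1 read per 1000000. The TAM share of the summed receptor level, 42.2% in FPKM, was 30.9% with lengths scaled to the longest transcript, 25.7% in reads per 1000000 and 47.8% when each subfamily was represented by its highest member. It ranged from 42.1% to 42.4% without each aliquot. The log2 ratio of Axl to Kdr, 1.15 in FPKM, reversed to -0.27 in reads per 1000000, which are not divided by length. Members beyond sampling noise numbered 0, against 1 (Kdr) with mitochondrial genes left out of the totals, and 0 to 1 without each aliquot. Non-overlapping neighbours numbered 13 to 17 (15 in FPKM), and 11 among members averaging at least 1 FPKM. No paired analysis was possible because all aliquots form 1 group. Members with few reads, such as Egfr with 10 and Kit with 1, have wide counting intervals, which the order by non-overlapping aliquots does not take into account.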

Other observations

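Several members lie near each other in the genome. On chromosome 5, Pdgfra, Kit and Kdr follow each other with no annotated protein-coding gene in the gap between Pdgfra and Kit (376700 bases) or between Kit and Kdr (276104 bases). Kit, in the middle, had 0.0151 FPKM (1 recovered read over all aliquots), whereas Pdgfra had 48.1 FPKM and Kdr 143 FPKM. Farther along the same chromosome Flt3 and Flt1 are separated by 161114 bases with 1 protein-coding gene between them, and had 1.56 and 48.2 FPKM. On chromosome 2, Ltk and Tyro3 lie 37301 bases apart and were both listed at 0, with 1 protein-coding gene between them. Gaps are as annotated on GRCm38, and nothing about shared control was tested.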
